A study of Mus musculus with 2 samples.

Results

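Lrrk2, Park7, Fbxo7, Vps35, Vps13c, Atp13a2, Dnajc6 and Synj1 are the mouse counterparts of 8 human genes in which variants cause or raise the risk of Parkinson disease, other than PINK1 and Parkin. The genes were taken by symbol, and all 8 were found once each among the 32285 features of both count tables. They were described across the cell types of the colon in a library of Pink1 KO mice and a library of WT littermates. Both libraries came from 15-week-old male mice on the C57BL/6 background, and each pooled FACS-sorted nuclei from 3 mice, with no label that tells the mice apart. RNA was measured by droplet sequencing of single nuclei with tags at the 3′ end, and each molecule was counted once by its unique molecular identifier (UMI). With 1 library per genotype there was no replicate check, so no test between genotypes was possible. The batch label also differed between the libraries (2 for Pink1 KO and 1 for WT), so genotype, batch and library cannot be told apart.

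The proteins of these genes work at several steps of membrane and organelle upkeep. LRRK2 is a kinase that phosphorylates Rab proteins on membranes, VPS35 is the core subunit of the retromer that returns cargo from endosomes, and VPS13C moves lipids between organelles that touch. ATP13A2 exports polyamines from lysosomes, synaptojanin 1 (Synj1) and auxilin (Dnajc6) strip lipid and clathrin from new endocytic vesicles, FBXO7 is a subunit of a ubiquitin ligase and a proteasome partner, and DJ-1 (Park7) protects against oxidative stress. PINK1 is the mitochondrial kinase that marks damaged mitochondria for removal, and human variants in its gene also cause Parkinson disease.

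The Pink1 KO library held 22446326 UMIs in 12230 barcodes, and the WT library held 16997995 UMIs in 8924 barcodes. After filters and removal of doublets, 10966 Pink1 KO nuclei (median 1570 UMIs) and 8256 WT nuclei (median 1626 UMIs) were kept, and 22 barcode sequences occurred in both sets. Pink1 itself had 113 UMIs in the Pink1 KO library and 170 UMIs in the WT library, or 6.1 and 11.3 CPM, where CPM is the count scaled to a library or class total of 1e+06 UMIs of nuclear-encoded genes. The Pink1 transcript was thus still counted in the library labelled Pink1 KO, and the position of these reads relative to the deletion was not analysed here. The Pink1 KO library stood apart in 2 ways: mitochondrial UMIs were 0.526% against 0.273% in the WT library, and all 16 immediate early genes listed were at least 1.5-fold higher, summing to 3103 CPM against 683 CPM. Mitochondrial UMIs do not enter CPM, and the part of either difference in the ratios between genotypes was not tested.

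The nuclei fell into 33 clusters, and 15 classes were named from marker genes, so that a name such as colonocyte stands for colonocyte-like nuclei. Crypt-base and proliferating (2170 Pink1 KO and 1826 WT nuclei), colonocyte (1550 and 1004), goblet (1128 and 976), fibroblast (775 and 410), smooth muscle (528 and 294) and macrophage and dendritic (277 and 162) were the classes with at least 100 nuclei in each library. Another 8 classes reached 30 nuclei over both libraries, and enteric neurons had only 4 Pink1 KO and 17 WT nuclei. Nuclei of 7 clusters (3723 and 2993) took no name, 5 of them epithelial. Slfn4 in goblet cluster 4, Saa1 in colonocyte cluster 10 and Ptgs2 in fibroblast cluster 18, all immune or stress genes, ranked among the 10 genes with the highest fold. None of the 8 genes was among the 2000 variable genes that shaped the clusters. Muc2, the gel-forming mucin of goblet cells, stood at 12029 and 11978 CPM in goblet nuclei of the Pink1 KO and WT libraries and at 413 and 545 CPM in colonocyte nuclei. Such counts outside goblet nuclei are read below as free RNA, but their source was not tested.

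Lrrk2 and Atp13a2 were the members whose levels differed most among the larger classes, and the sequences just upstream of their starts are shown for that reason. RefSeq promoters (GRCm38.p6, 250 bases before to 50 after a start) were at hand for 6 of the 8 genes. The Lrrk2 window lies on the plus strand at chr15:91672974-91673273 and the Atp13a2 window on the plus strand at chr4:140986671-140986970. Both are written 5′ to 3′, and capitals mark matches of the motifs searched on both strands: GGGCGG (bound by Sp1), CACGTG (TFEB), CTTTGA (TCF and LEF factors) and GAGGAA (PU.1).
Lrrk2: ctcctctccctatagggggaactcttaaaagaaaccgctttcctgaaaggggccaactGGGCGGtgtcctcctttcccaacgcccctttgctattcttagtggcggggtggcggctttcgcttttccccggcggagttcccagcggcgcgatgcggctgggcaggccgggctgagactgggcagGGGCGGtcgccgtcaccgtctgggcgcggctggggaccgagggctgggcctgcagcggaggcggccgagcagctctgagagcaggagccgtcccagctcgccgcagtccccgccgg
Atp13a2: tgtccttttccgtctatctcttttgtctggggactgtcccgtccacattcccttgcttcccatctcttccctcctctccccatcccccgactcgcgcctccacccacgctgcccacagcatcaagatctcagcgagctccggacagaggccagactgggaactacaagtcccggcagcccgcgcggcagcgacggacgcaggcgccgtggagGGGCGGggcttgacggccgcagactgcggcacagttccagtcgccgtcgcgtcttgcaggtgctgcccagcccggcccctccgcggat
The Lrrk2 window held 2 GGGCGG matches and the Atp13a2 window 1, and neither held the other motifs. Of all 32851 promoters in the table, 35.7% held GGGCGG, 7.15% CACGTG, 16.0% CTTTGA and 28.3% GAGGAA. The only CACGTG match of the 6 genes was in 1 of the 2 Fbxo7 windows.

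Lrrk2, the large kinase and GTPase, had its highest levels in B cells, the crypt base and stroma. Crypt-base nuclei held 203 of its 568 UMIs in the Pink1 KO library and 221 of its 534 UMIs in the WT library, and the unnamed clusters held 191 and 178. In the epithelium it was high at the crypt base and very low in goblet cells and colonocytes, in both genotypes. Fibroblasts, smooth muscle and enteric glia carried it at about the level of the crypt base. The gene (ENSMUSG00000036273) spans chr15:91673175-91816120 on the plus strand of GRCm38, over 143 kb.

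By class, Lrrk2 reached 56.9 CPM in crypt-base and proliferating nuclei of the Pink1 KO library (203 UMIs) and 69.1 CPM in those of the WT library (221 UMIs). Colonocytes had 2.53 CPM in the Pink1 KO library (7 UMIs) and 5.55 CPM in the WT library (11 UMIs), and goblet nuclei 4.96 and 6.52 CPM. The crypt-base class was 22.4-fold above colonocytes in the Pink1 KO library (95% counting interval 10.7 to 56.5) and 12.5-fold in the WT library (6.83 to 25.3). Both libraries thus put the crypt base well above both mature types. The order held in nuclei rather than in UMIs alone: 7.28% of Pink1 KO and 10.7% of WT crypt-base nuclei had a Lrrk2 UMI, against 0.387% and 0.996% of colonocytes. With every nucleus thinned to 500 UMIs the crypt-base shares were 2.44% and 3.01%, against 0.194% and 0.199% of colonocytes. Median depth was 1542 and 1579 UMIs in the crypt-base class and 1628 and 1769 UMIs in colonocytes. Muc2, the goblet cell mucin, had a UMI in 45.2% and 51.5% of crypt-base nuclei and in 48.8% and 54.3% of colonocytes, and the part of free RNA in the Lrrk2 shares was not tested.

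Fibroblasts had 75.8 CPM of Lrrk2 in the Pink1 KO library and 61.0 CPM in the WT library. Smooth muscle had 47.7 and 58.6 CPM and enteric glia 51.4 and 49.2 CPM, the latter from 9 and 7 UMIs. The ranges of the 2 library values of these classes overlapped from 1 neighbour to the next, so fibroblasts, crypt base, smooth muscle and glia have no firm order. B cell nuclei had the highest level, at 95.8 CPM in the Pink1 KO library and 239.7 CPM in the WT library, but this rests on 3 UMIs in 36 nuclei and 20 UMIs in 98 nuclei. Macrophage and dendritic nuclei had 40.5 and 35.5 CPM. Plasma cells and T and innate lymphoid nuclei had 3 and 2 UMIs in the Pink1 KO library and none in the WT library. Tuft and enteroendocrine nuclei had 0 UMIs in the Pink1 KO library and 1 UMI each in the WT library.

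Among single epithelial clusters, Lrrk2 also differed within the classes. Cluster 1, led by Fut9 and Clca3a2 with Lgr5 and Smoc2 among its leading genes, had 99.8 CPM in the Pink1 KO library and 115 CPM in the WT library. The unnamed clusters 2 and 6, led by Gsdmc3 and Sycn, followed with 83.2 and 75.9 CPM, and 46.5 and 54.3 CPM. The dividing clusters 12 (Knl1, Top2a) and 16 (Cenpf, Mki67) had 42.5 and 43.1 CPM, and 39.9 and 49.6 CPM. Crypt-base cluster 3, which Dtl and Ntrk2 led, was lower, at 22.2 and 29.3 CPM. The 2 goblet clusters differed as well: cluster 8 (Mptx1, Reg4) had 10.6 and 12.6 CPM, and cluster 4 (Fcgbp, Clca1) 1.46 and 1.79 CPM from 2 UMIs in each library. Unnamed cluster 0 had 6 UMIs in 958 Pink1 KO nuclei and 5 UMIs in 711 WT nuclei.

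**Figure D1:**
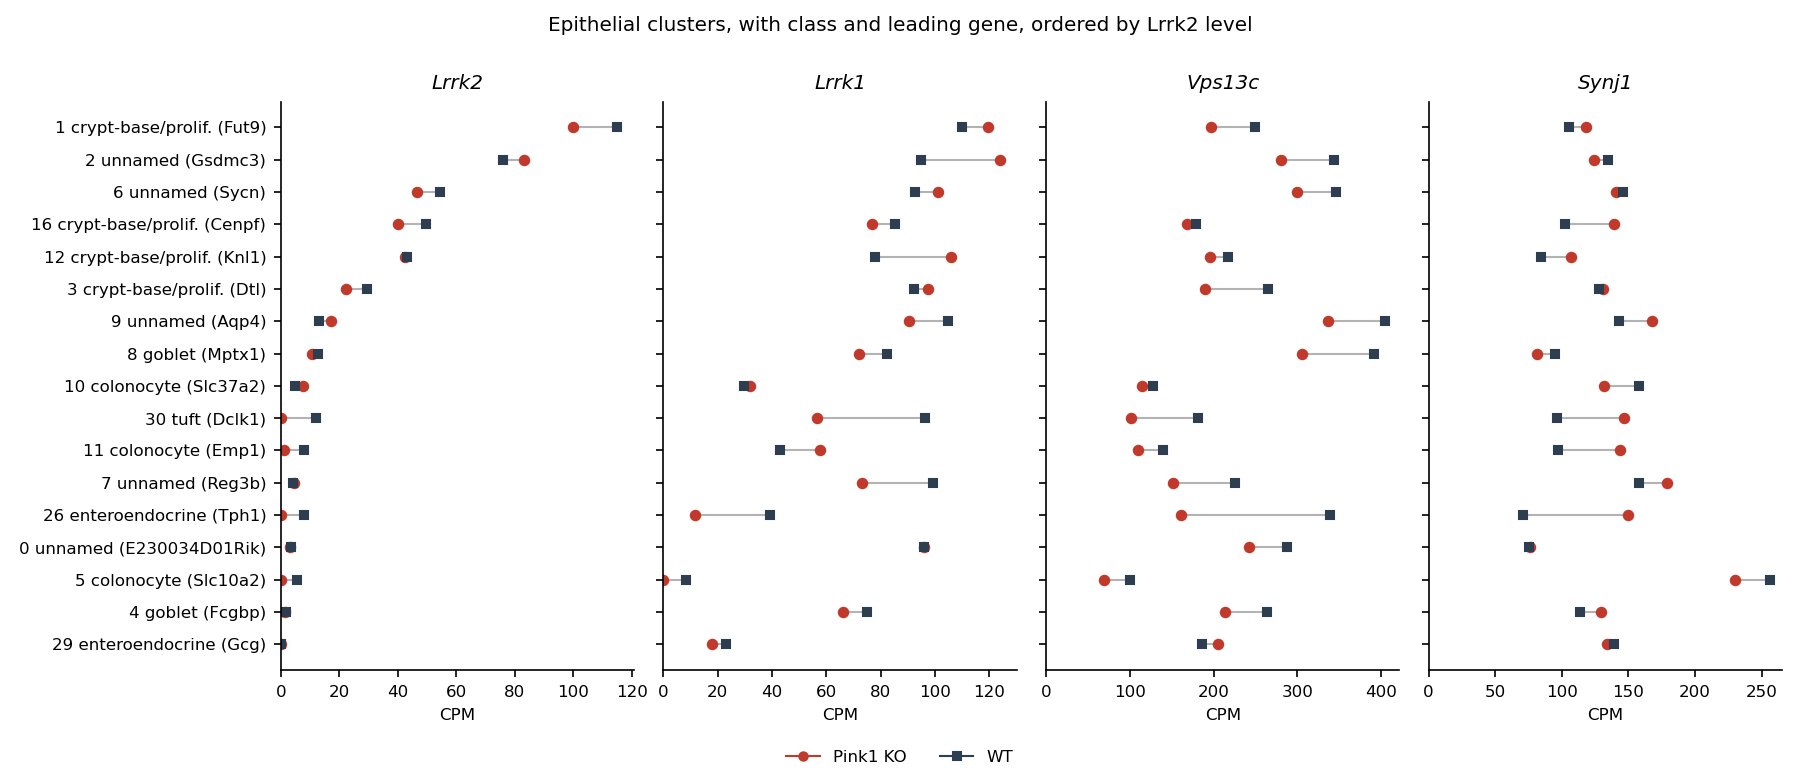
CPM of Lrrk2, its paralog Lrrk1, Vps13c and Synj1 (x axes) in each epithelial cluster (rows, with class and leading gene, ordered by Lrrk2). Red circles are the Pink1 KO library and dark squares the WT library; Lrrk2 runs from 99.8 and 115 CPM in cluster 1 to 1.46 and 1.79 CPM in goblet cluster 4, and Vps13c is lower in the Pink1 KO library in every cluster but enteroendocrine cluster 29.

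Lrrk1, the paralog of Lrrk2 with known roles in bone and in Rab7 regulation, was spread over more of the epithelium. It had 105 and 96.0 CPM in crypt-base nuclei of the Pink1 KO and WT libraries and was still at 68.5 and 78.2 CPM in goblet nuclei, where Lrrk2 was near its lowest. Fibroblasts had the highest Lrrk1 level, at 258 CPM in the Pink1 KO library and 224 CPM in the WT library. Enteric glia had 2 and 1 UMIs of Lrrk1, against 9 and 7 UMIs of Lrrk2, so this contrast rests on few counts. In colonocyte cluster 5, led by Slc10a2, Lrrk1 had 0 UMIs in 606 Pink1 KO nuclei and 6 UMIs in 398 WT nuclei. The 3 genes whose pattern over 11 classes was most like that of Lrrk2 were Zfp72, Arsk and Dnajb4, with Pearson correlations of 0.90, 0.89 and 0.89 of log2(CPM + 5). These correlations, here and below, compare class levels that share libraries and depth and are descriptions.

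**Figure D2:**
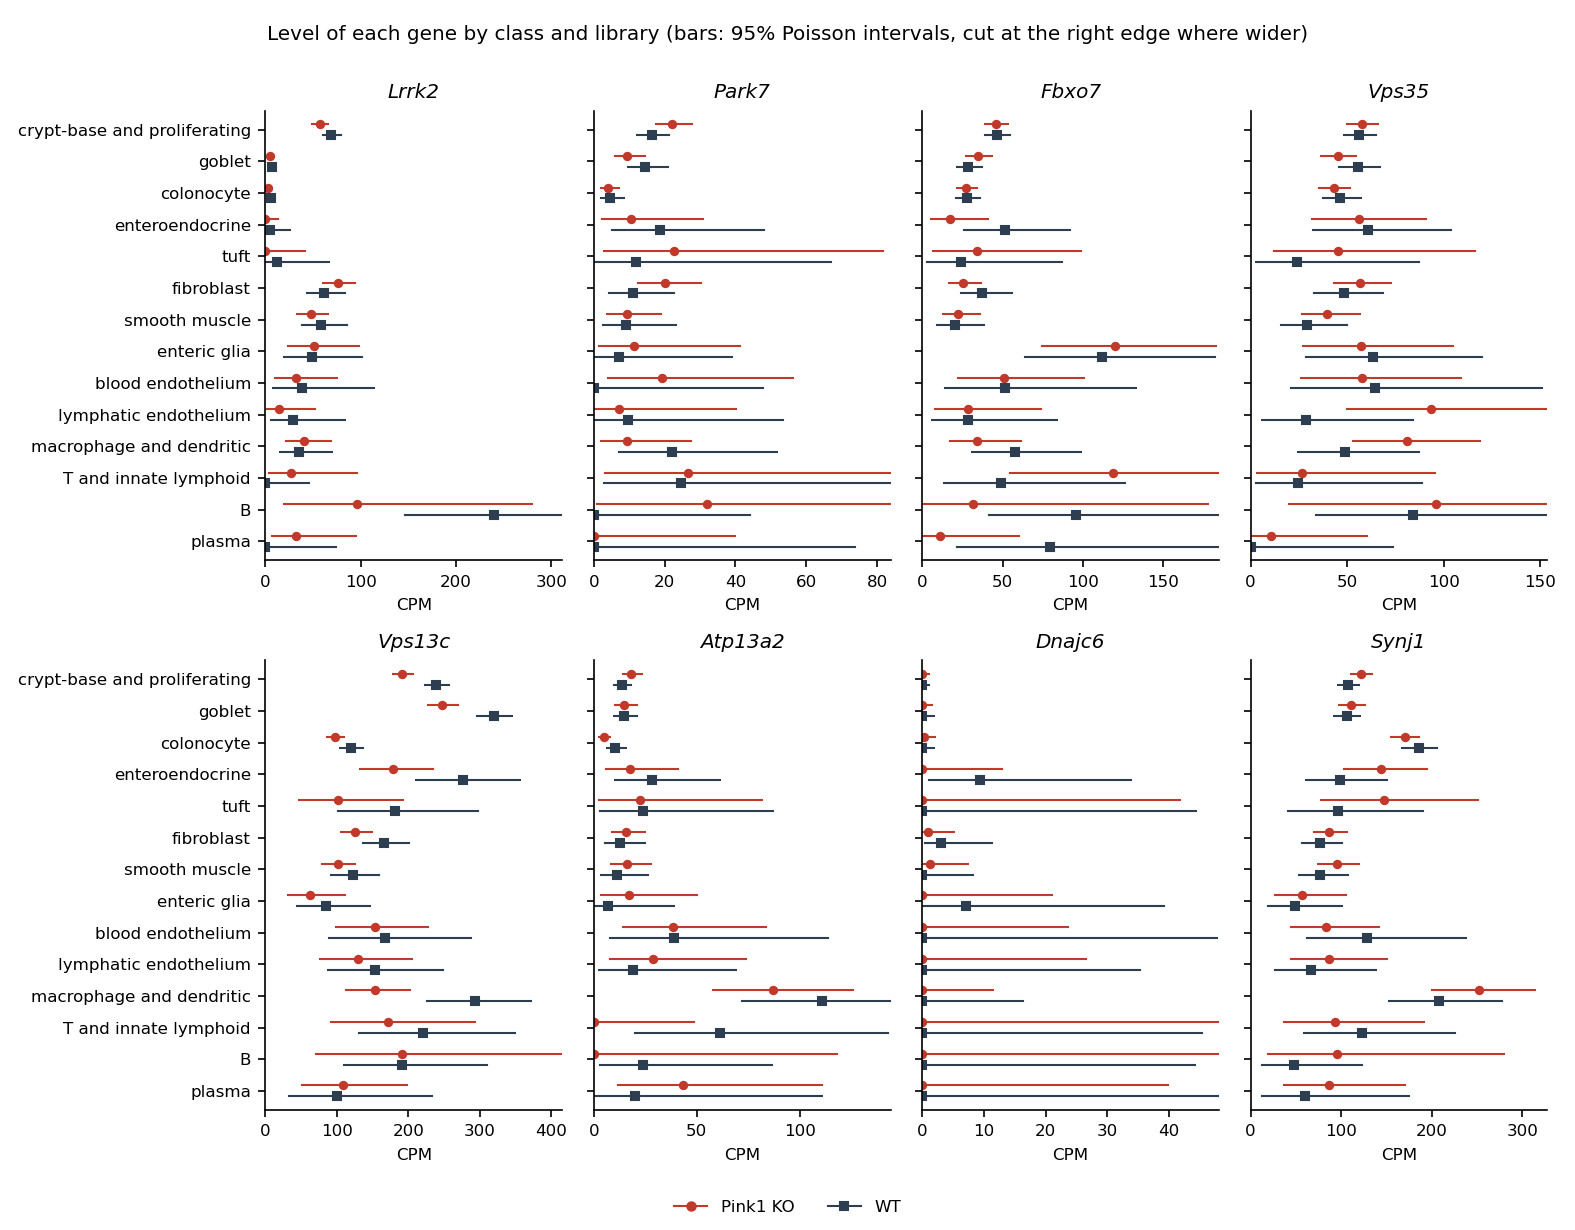
CPM (x axes) of each of the 8 genes in 14 classes (rows). Red circles are the Pink1 KO library and dark squares the WT library, with 95% Poisson intervals that cover counting error only; Atp13a2 and Synj1 peak in macrophage and dendritic nuclei, Fbxo7 in enteric glia, and Dnajc6 is near 0 throughout.

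Atp13a2, the lysosomal polyamine transporter, was highest in the macrophage and dendritic class among classes of at least 30 nuclei. Macrophage and dendritic nuclei had 87.3 CPM in the Pink1 KO library (28 UMIs) and 111 CPM in the WT library (25 UMIs). The gene (ENSMUSG00000036622) spans 20.5 kb at chr4:140986873-141007330. Among the other classes of that size the highest value in a library was 61.4 CPM, from 5 UMIs in T and innate lymphoid nuclei of the WT library, against 0 UMIs in the Pink1 KO library. Blood endothelium followed with 38.4 CPM (6 UMIs) and 38.8 CPM (3 UMIs). This range does not overlap that of macrophages, but counts this low do not set the classes firmly apart. Colonocytes had the lowest mean level, at 4.71 CPM from 13 UMIs in the Pink1 KO library and 10.1 CPM from 20 UMIs in the WT library. The macrophage class was 18.5-fold above colonocytes in the Pink1 KO library (9.29 to 39.0) and 11.0-fold in the WT library (5.86 to 20.9). Below macrophages, every pair of neighbours in the order of classes overlapped. The 21 enteric neuron nuclei, under the minimum for that order, had 137 CPM from 2 UMIs in the Pink1 KO library and 82.6 CPM from 5 UMIs in the WT library. Their range overlapped that of macrophages, so neither can be placed above the other.

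The genes most like Atp13a2 over 11 classes were Acer3, an alkaline ceramidase (0.93), Paox, which oxidises acetylated polyamines (0.91), and Rabep1, an effector of Rab5 (0.89). Paox had 43.6 and 66.5 CPM in macrophage and dendritic nuclei of the Pink1 KO and WT libraries and 4.35 and 3.53 CPM in colonocytes. Of these 3 genes, Paox alone stayed among the closest 3 when 1 CPM was added in place of 5. Other P5 ATPases had other patterns: Atp13a3, also a polyamine transporter, had 256 and 195 CPM in macrophage and dendritic nuclei and 614 and 582 CPM in goblet nuclei. Atp13a1, which removes misplaced helices from the endoplasmic reticulum, had 92.8 and 68.5 CPM in crypt-base nuclei and 35.8 and 25.7 CPM in colonocytes. Atp13a4 was counted mainly in crypt-base nuclei, with 16 of its 26 UMIs in the Pink1 KO library and 31 of its 42 UMIs in the WT library. Of 9 paralogs with at least 20 UMIs, it was the only 1 at least 1.5-fold apart over all nuclei, and was lower in Pink1 KO. Among all genes with as many UMIs, 14.6% were 1.5-fold apart. Atp13a5 had no UMI in any class, which with 3 counts as the floor allows up to 0.162 CPM over all Pink1 KO nuclei and 0.199 CPM over all WT nuclei.

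Synj1, the phosphatase that removes phosphoinositides from endocytic vesicles, is best known from nerve terminals and was also well counted in epithelium and macrophages. The gene (ENSMUSG00000022973) lies on the minus strand at chr16:90936092-91011308, and Gm15965 and 4930404I05Rik overlap it on the other strand. The few enteric neuron nuclei had 342 CPM in the Pink1 KO library (5 UMIs) and 281 CPM in the WT library (17 UMIs), above every class of at least 30 nuclei in both. So few UMIs do not place the neurons firmly above those classes. Among those larger classes the macrophage and dendritic class led. Macrophage and dendritic nuclei had 252 CPM in the Pink1 KO library (81 UMIs) and 208 CPM in the WT library (47 UMIs). Colonocytes came next with 170.2 CPM (470 UMIs) and 186 CPM (368 UMIs), and the ranges of these 2 classes overlapped neither each other nor that of the next class, tuft (147 and 96.4 CPM). The macrophage and dendritic class exceeded colonocytes 1.48-fold in the Pink1 KO library (1.16 to 1.88) and 1.12-fold in the WT library (0.810 to 1.52), so that lead is not firm in the WT library. Enteric glia had the lowest level, at 57.2 and 49.2 CPM. Colonocytes exceeded goblet nuclei 1.53-fold in the Pink1 KO library (1.31 to 1.79) and 1.76-fold in the WT library (1.48 to 2.09).

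Within the colonocytes, Synj1 was highest in cluster 5, led by Slc10a2, at 230.0 CPM in the Pink1 KO library and 256 CPM in the WT library. Clusters 10 (Slc37a2) and 11 (Emp1) had 132 and 158 CPM, and 144 and 97.3 CPM. These clusters make up different parts of the class in the 2 libraries: cluster 5 is the largest in the Pink1 KO library with 39.1% of the class, and cluster 10 in the WT library with 48.0%. Cluster 5, where Synj1 was highest, had 0 Lrrk2 UMIs in the Pink1 KO library and 4 in the WT library. Its paralog Synj2 was highest in goblet nuclei, with 142 CPM in the Pink1 KO library and 164 CPM in the WT library, and had 30.8 and 35.8 CPM in colonocytes. The genes most like Synj1 were the Wnt co-receptor Lrp6 (0.93), the actin capping subunit Capza2 (0.92) and the tyrosine kinase Syk (0.91). Syk left the closest 3 when 1 CPM was added in place of 5.

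Dnajc6, which encodes the neuronal auxilin that uncoats clathrin vesicles with Hsc70, was hardly counted. It lies on the plus strand at chr4:101496648-101642799 (ENSMUSG00000028528). The Pink1 KO library had 7 UMIs and the WT library 6 UMIs over all nuclei. Of these 13 UMIs, 4 lay in the 21 enteric neuron nuclei, 3 of them in the Pink1 KO library and 1 in the WT library, and those nuclei held under 1% of the UMIs of 6 of the other 7 genes, with Atp13a2 at 1.36%. Over both libraries, enteroendocrine nuclei held 2 UMIs, fibroblasts 3, and colonocytes, smooth muscle, enteric glia and the unnamed clusters 1 each. No UMI fell in macrophage and dendritic nuclei, which allows up to 9.35 CPM in the Pink1 KO library and 13.3 CPM in the WT library. The ubiquitous auxilin, cyclin G associated kinase (Gak), was counted in every class: 136 and 137 CPM in Pink1 KO and WT colonocytes, 78.9 and 83.3 CPM in goblet nuclei, 75.4 and 72.3 CPM in crypt-base nuclei, and 27.4 and 28.2 CPM in fibroblasts.

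Vps13c, the bridge-like lipid transfer protein of endosomes and lysosomes, was counted in every class. Among named classes of at least 30 nuclei it had its highest mean level in goblet nuclei. The unnamed nuclei, 34.0% of the Pink1 KO library and 36.3% of the WT library, are outside that order. The gene (ENSMUSG00000035284) spans 155 kb of the plus strand at chr9:67840396-67995638. Goblet nuclei had 248 CPM in the Pink1 KO library and 320.0 CPM in the WT library, enteroendocrine nuclei 179 and 277 CPM, macrophage and dendritic nuclei 153 and 293 CPM, and crypt-base nuclei 192 and 239.6 CPM. The ranges of these classes overlapped from 1 neighbour to the next, so they have no firm order. Colonocytes had 97.4 and 119.6 CPM, and enteric glia were lowest at 62.9 and 84.3 CPM. Goblet nuclei exceeded colonocytes 2.55-fold in the Pink1 KO library (2.20 to 2.96) and 2.67-fold in the WT library (2.30 to 3.12). By cluster, the unnamed epithelial cluster 9, led by Aqp4, and goblet cluster 8 were highest among the epithelial clusters, with 337 and 405 CPM, and 305 and 391 CPM. Cluster 5 was lowest, at 69.3 and 100.2 CPM. Enteric neuron nuclei, with 4 and 17 UMIs, had 273 and 281 CPM, a range within that of goblet nuclei. Imp4, Lamtor3 and Golga1 had the most similar patterns (0.90, 0.90 and 0.89). Golga1 left the closest 3 when 1 CPM was added in place of 5.

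Vps35, the retromer core, lay between 29.3 and 81.0 CPM in the classes with at least 100 nuclei in each library. The gene (ENSMUSG00000031696) lies on the minus strand at chr8:85260392-85299802. Crypt-base nuclei had 57.5 and 56.3 CPM in the Pink1 KO and WT libraries, goblet nuclei 45.1 and 55.7 CPM, colonocytes 43.1 and 46.4 CPM, and fibroblasts 56.6 and 48.5 CPM. Smooth muscle was lowest of these classes, at 39.7 and 29.3 CPM. Crypt-base nuclei exceeded colonocytes 1.33-fold in the Pink1 KO library (1.06 to 1.69) and 1.21-fold in the WT library (0.938 to 1.58). Macrophage and dendritic nuclei had 81.0 CPM in the Pink1 KO library and 48.8 CPM in the WT library, from 26 and 11 UMIs, so the class cannot be placed above the epithelium in both. It exceeded smooth muscle 2.04-fold in the Pink1 KO library (1.16 to 3.57) and 1.67-fold in the WT library (0.676 to 4.03). Among all classes of at least 30 nuclei, B cells were highest, at 95.8 CPM in the Pink1 KO library and 83.9 CPM in the WT library. This rests on 3 and 7 UMIs. Plasma cells were lowest, with 1 UMI in the Pink1 KO library and 0 in the WT library. Of 13 pairs of neighbouring classes in that order, 10 overlapped. Vps35 shares its locus with Orc6 on the other strand, and since no source used here says whether counting used strand, reads of this pair, as of Synj1 and its overlapping genes, may not be fully separated. The proteasome ATPase Psmc5 (0.94), Cdk7 (0.89) and Psph (0.88) were most like Vps35. Of these, Psmc5 alone stayed among the closest 3 when 1 CPM was added in place of 5. All of them had 0 CPM in T and innate lymphoid nuclei of both libraries, where Vps35 had 2 UMIs in each.

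Fbxo7, the F-box subunit (ENSMUSG00000001786, plus strand, chr10:86021972-86051873), was highest in enteric glia, at 120.0 CPM in the Pink1 KO library (21 UMIs) and 112 CPM in the WT library (16 UMIs). Crypt-base nuclei had 45.7 and 46.6 CPM and colonocytes 27.5 and 27.8 CPM, a ratio of 1.66 in the Pink1 KO library (1.26 to 2.21) and 1.68 in the WT library (1.22 to 2.33). Smooth muscle was lowest, at 22.5 and 20.3 CPM. The ranges of glia and of T and innate lymphoid nuclei (119 and 49.1 CPM, from 9 and 4 UMIs) overlapped. The most similar gene was Fbxw7, another F-box gene (0.87), which had 211 and 246 CPM in enteric glia and 35.5 and 29.8 CPM in colonocytes, followed by Tle3 (0.86) and Nif3l1 (0.86).

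Park7, which encodes DJ-1 (ENSMUSG00000028964, minus strand, chr4:150897133-150914437), had few UMIs in nuclei, 229 in the Pink1 KO library and 188 in the WT library. Crypt-base nuclei had 22.1 CPM in the Pink1 KO library (79 UMIs) and 16.3 CPM in the WT library (52 UMIs). Colonocytes had 3.98 and 4.54 CPM, so that the crypt base was 5.56-fold higher in the Pink1 KO library (2.94 to 11.6) and 3.58-fold higher in the WT library (1.75 to 8.27). Goblet nuclei lay between, at 9.47 and 14.5 CPM. Fibroblasts had 20.1 CPM in the Pink1 KO library (22 UMIs) and 11.0 CPM in the WT library (7 UMIs). The other classes had at most 7 UMIs in a library, and plasma cells had none. Thada, Trp53 and Pelp1 were most like Park7 (0.94 each), but none of them was among the closest 3 when 1 CPM was added.

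Between the genotypes, the listed genes were first compared over all nuclei. Dnajc6 had too few UMIs for a ratio (at least 50 over both libraries were asked), and of the other 7 genes none was 1.5-fold apart over all nuclei, where 11.0% of 14612 genes were. With so few genes, nothing is read from this count or from the counts per class below. Vps13c had the lowest ratio, and its interval left out 1 in 5 of 6 classes. The share of all genes with as many such intervals was not computed. Lrrk2 was slightly lower in the Pink1 KO library, and Synj1, Park7, Fbxo7, Vps35 and Atp13a2 had intervals that held 1.

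Vps13c had 197 CPM in the Pink1 KO library (3650 UMIs) and 253 CPM in the WT library (3818 UMIs), a ratio of 0.778 (0.743 to 0.814). At least 1.25-fold lower values in Pink1 KO were found for 16.1% of genes over all nuclei, so a ratio of this size was common. The ratio was below 1 in all 6 classes with at least 100 nuclei in each library, which held for 8.94% of the 1521 genes with at least 50 UMIs in each of these classes. It was 0.80 in crypt-base nuclei (0.721 to 0.888), 0.777 in goblet nuclei (0.692 to 0.872), 0.814 in colonocytes (0.681 to 0.974), 0.760 in fibroblasts (0.586 to 0.988) and 0.827 in smooth muscle (0.576 to 1.2). Macrophage and dendritic nuclei had 153 CPM in the Pink1 KO library (49 UMIs) and 293 CPM in the WT library (66 UMIs), a ratio of 0.522 (0.353 to 0.766). Of 3 goblet cell genes counted in this class, Muc2 had 676 CPM in the Pink1 KO library and 1313 CPM in the WT library, Fcgbp 221 and 612 CPM, and Zg16 349 and 217 CPM, so the first pair were lower in Pink1 KO as well. The 5 epithelial genes read as free RNA summed to 1514 CPM in the Pink1 KO library and 2595 CPM in the WT library. With 10% free RNA subtracted the Vps13c ratio was 0.497, and a larger subtraction was not tested. With only nuclei of at least 1000 UMIs kept it was 0.678, short of 1.5-fold. Enteroendocrine nuclei, with fewer than 100 in a library, had 51 and 59 UMIs and a ratio of 0.646 (0.435 to 0.955). In single clusters with at least 50 Vps13c UMIs the ratio was below 1 in 20 of 20, from 0.476 to 0.952, and its interval left out 1 in 11. The clusters are parts of the same libraries, and the share of all genes with such counts was not computed.

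**Figure D3:**
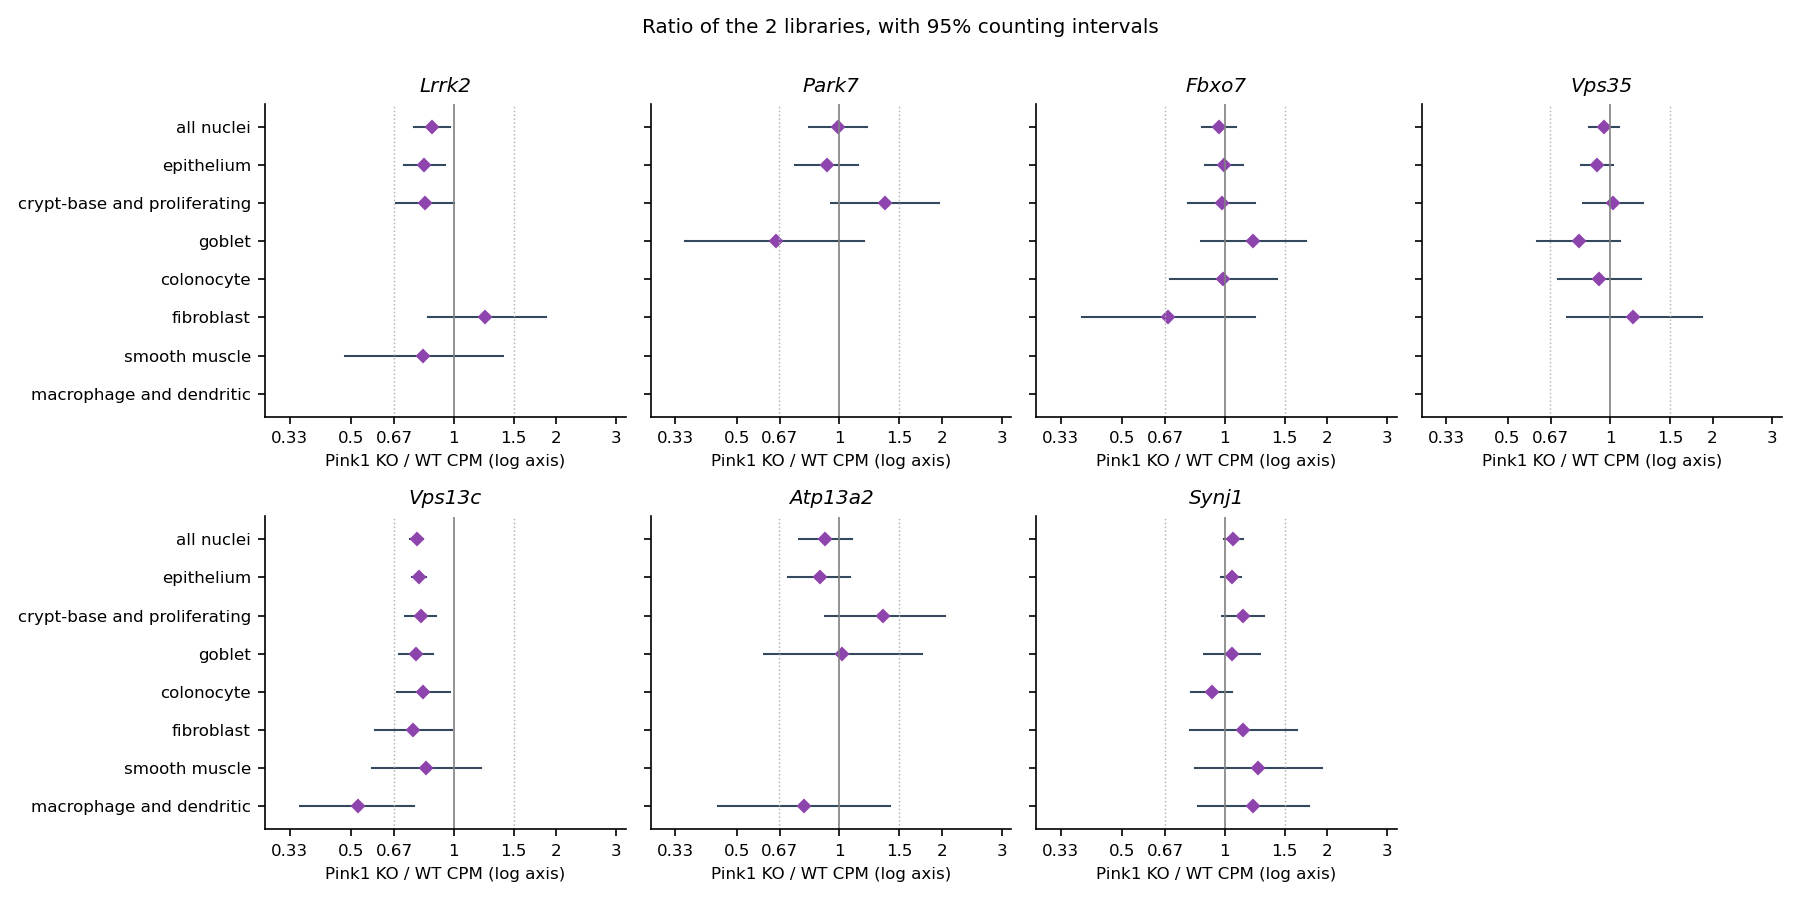
Ratio of Pink1 KO to WT CPM (log x axes) with 95% counting intervals for the 7 genes with enough UMIs, over all nuclei, the epithelium and the classes with at least 100 nuclei in each library (rows; blank where a gene had under 50 UMIs). The solid line is 1 and the dotted lines 1.5-fold; Vps13c lies left of 1 in every row, and past the dotted line in macrophage and dendritic nuclei.

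The other Vps13 genes were nearer 1 over all nuclei. Vps13a, the chorein gene, had 306 CPM in the Pink1 KO library and 300.3 CPM in the WT library, a ratio of 1.02 (0.979 to 1.06). Vps13b, the Cohen syndrome gene, had 233 and 258 CPM (0.902, 0.863 to 0.942), and Vps13d, which is needed for mitochondrial clearance, had 291 and 317 CPM (0.918, 0.883 to 0.955). In macrophage and dendritic nuclei the ratios were 1.36 for Vps13a (0.875 to 2.16), 0.903 for Vps13b (0.592 to 1.39) and 1.15 for Vps13d (0.732 to 1.83), with intervals that all held 1. Enteroendocrine nuclei gave 0.715 for Vps13a (0.530 to 0.965), 1.59 for Vps13b (1.03 to 2.50) and 1.52 for Vps13d (0.985 to 2.38). In smooth muscle, all 3 relatives were below 1, with 0.569 for Vps13a (0.392 to 0.825), 0.724 for Vps13b (0.494 to 1.06) and 0.674 for Vps13d (0.489 to 0.931). Vps13c spans 155 kb, and the 1970 genes of at least 100 kb had a median ratio of 0.979 over all nuclei, against 0.985 for all 14612 genes.

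**Figure D4:**
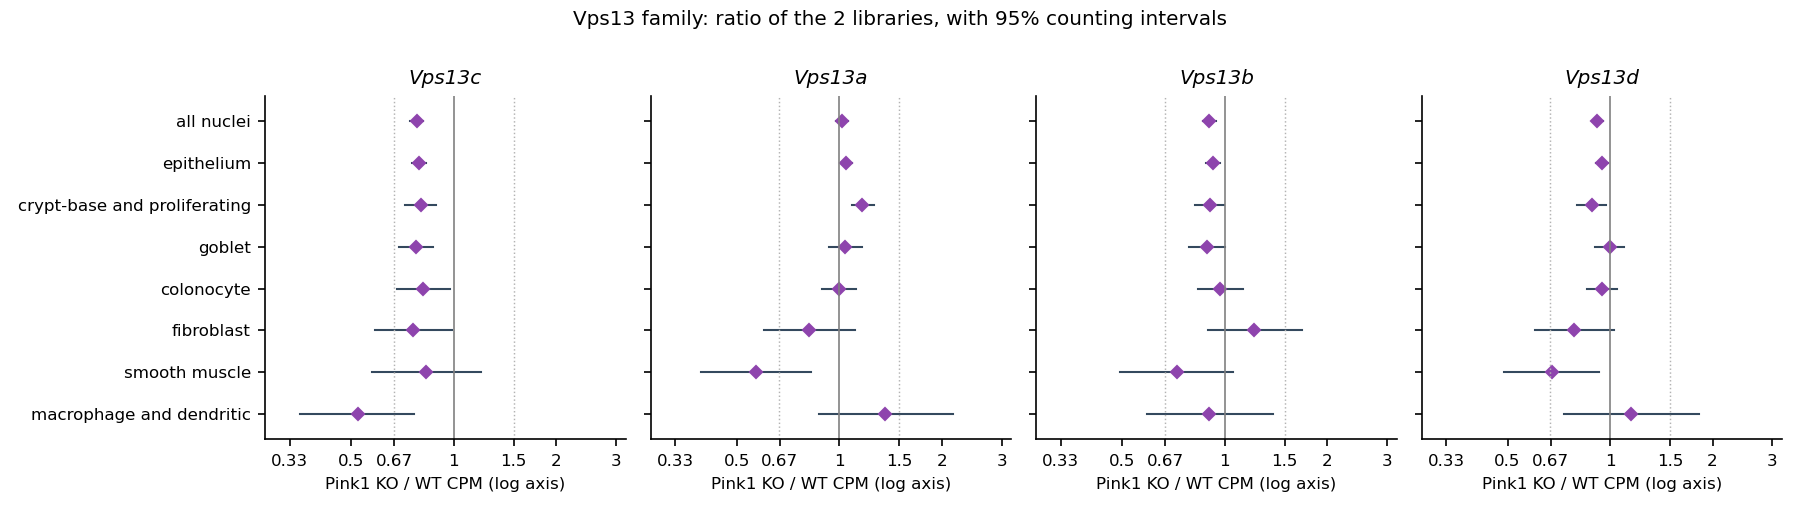
Ratio of Pink1 KO to WT CPM (log x axes) with 95% counting intervals for the 4 Vps13 genes in the same rows. The solid line is 1 and the dotted lines 1.5-fold; Vps13c is below 1 in all rows, while its 3 relatives lie on either side of it and are below 1 in smooth muscle.

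Lrrk2 had 30.6 CPM in the Pink1 KO library (568 UMIs) and 35.4 CPM in the WT library (534 UMIs), a ratio of 0.865 (0.767 to 0.975). In the epithelium the ratio was 0.821 (0.713 to 0.945), and no listed gene was 1.5-fold apart there, against 9.91% of genes. In crypt-base nuclei it was 0.823 (0.677 to 1.00), and none of 7 listed genes was 1.5-fold apart in that class, against 8.11% of genes. Fibroblasts had a ratio of 1.24 (0.839 to 1.87) and smooth muscle of 0.814 (0.478 to 1.40), so the direction was not shared by all classes. None of the 5 listed genes with enough UMIs was 1.5-fold apart in fibroblasts (13.4% of genes), nor any of 3 in smooth muscle (13.4%) or of 4 in colonocytes (14.9%). Some of these counts change with the processing. In crypt-base nuclei the Atp13a2 ratio of 1.35 ranged from 1.22 to 2.21 and passed 1.5-fold in 4 of 10 alternatives, and the Park7 ratio of 1.36 ranged from 1.25 to 1.94 and passed in 2 of 10. Vps35 in colonocytes reached 1.99 and Lrrk2 in smooth muscle 0.557 with nuclei thinned to 500 UMIs. Fbxo7 in fibroblasts, at 0.681, ranged from 0.613 to 1.46, so on both sides of 1, and passed in 2 of 10 alternatives. Lrrk1 had a ratio of 1.06 over all nuclei (0.990 to 1.14).

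Synj1 had 126 CPM in the Pink1 KO library and 119 CPM in the WT library, a ratio of 1.06 (0.996 to 1.13), and its class ratios lay between 0.916 in colonocytes and 1.25 in smooth muscle. Fbxo7 had 35.1 and 36.4 CPM (0.963, 0.858 to 1.08) and Vps35 46.5 and 48.6 CPM (0.958, 0.867 to 1.06). In 2 epithelial clusters the Vps35 interval left out 1: goblet cluster 8 had 29.6 CPM in the Pink1 KO library and 59.5 CPM in the WT library (0.497, 0.296 to 0.816), and cluster 7, led by Reg3b, had 27.6 and 53.3 CPM (0.519, 0.299 to 0.885). These clusters were singled out after their values were seen, among 15 clusters with at least 50 Vps35 UMIs, and in goblet cluster 4 the ratio was 1.04 (0.728 to 1.48). Atp13a2 had 14.7 and 16.1 CPM (0.910, 0.763 to 1.09), and in macrophage and dendritic nuclei its ratio was 0.787 (0.442 to 1.41), with 0.590 in nuclei of at least 1000 UMIs. Thinning to 500 UMIs gave 1.51 for Synj1 in the same class.

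Park7 had 12.4 CPM in the Pink1 KO library and 12.5 CPM in the WT library, a ratio of 0.991 (0.813 to 1.21). Among ratios from at least 50 UMIs it was the only other gene past 1.5-fold in a class: goblet nuclei had 21 and 29 UMIs and a ratio of 0.651 (0.353 to 1.18), with 1 in the interval. Over 10 alternatives this ratio lay between 0.557 and 0.867 and fell short of 1.5-fold in 7. Of 6 listed genes with enough UMIs in goblet nuclei, Park7 was the 1 past 1.5-fold, where 13.1% of genes were in either direction and 7.94% were lower. In macrophage and dendritic nuclei Vps13c was 1 of 3, where 18.1% of genes were in either direction and 6.33% were lower. With a minimum of 20 UMIs, a choice made after the values were seen, 4 more ratios were past 1.5-fold. Atp13a2 in colonocytes was lower (0.466, 0.213 to 0.985), where 20.7% of genes were past 1.5-fold. The other intervals held 1, with Park7 in fibroblasts at 1.83 (0.757 to 5.08), where 21% were, and Fbxo7 at 0.595 (0.241 to 1.44) and Vps35 at 1.66 (0.793 to 3.72) in macrophage and dendritic nuclei, where 29.5% were. Park7, Atp13a2 and Dnajc6 lie on chromosome 4 as Pink1 does, at 12.6, 2.67 and 36.8 Mb from it. The 127 measured genes within 5 Mb of Pink1 had a median log2 ratio of 0.06, against -0.02 for all genes.

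The partners of the listed genes were compared by list. In each list, genes needed 20 UMIs over both libraries, and 14.6% of all 16554 such genes were at least 1.5-fold apart, with a median log2 ratio of -0.02. The share was 4 of 20 in the Rab list and 17.9% of the other genes linked to Parkinson disease and at most 10.0% of the remaining partner lists, and in lists this short nothing is read from these shares. Of 18 retromer and WASH genes, 1 was: Vps26b, a retromer subunit, had 9.71 CPM in the Pink1 KO library and 15.3 CPM in the WT library (0.634, 0.519 to 0.773). The retromer regulator Tbc1d5 (0.966) and the sorting receptor Sorl1 (0.939), with the most UMIs, were near 1.

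Among 20 genes listed here as Rab substrates and regulators of LRRK2, 3 were higher and 1 lower, with a median log2 ratio of 0.11. Rab3a had 9.60 CPM in the Pink1 KO library and 6.37 CPM in the WT library (1.51, 1.17 to 1.95) and Rab7b 6.37 and 3.85 CPM (1.65, 1.20 to 2.31). The link of Rab7b to LRRK2 was not checked. Rab3b was the third higher gene, with 20 and 8 UMIs (2.03, 0.858 to 5.34). Rilpl2, which binds phosphorylated Rabs, had 5.77 and 8.69 CPM (0.664, 0.510 to 0.864). The Rab phosphatase Ppm1h, which opposes LRRK2, had a ratio of 0.862 (0.806 to 0.922), and Mapk8ip3, a motor adaptor that binds phosphorylated Rabs, of 1.02 (0.952 to 1.10).

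**Figure D5:**
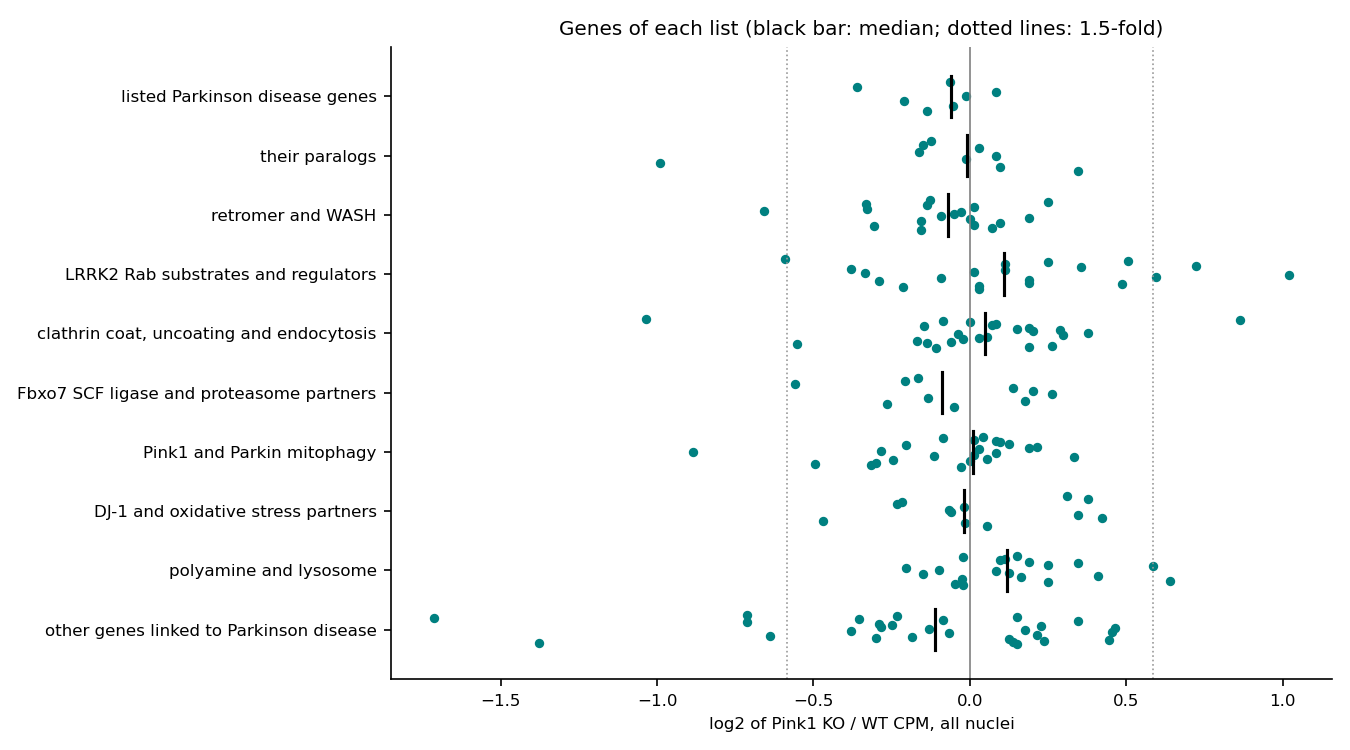
Log2 ratio of Pink1 KO to WT CPM over all nuclei (x axis) for each gene with at least 20 UMIs, by list (rows). Black bars are list medians, which lie between -0.11 and 0.12, and dotted lines mark 1.5-fold; all 7 listed Parkinson disease genes lie inside them.

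Polyamine and lysosome genes had a median log2 ratio of 0.12, with 2 of 20 at least 1.5-fold higher and none lower. These were Odc1, the rate-limiting enzyme of polyamine synthesis, at 47.3 CPM in the Pink1 KO library and 31.5 CPM in the WT library (1.5, 1.34 to 1.68), and Azin1, which shields it from degradation, at 121 and 77.7 CPM (1.56, 1.45 to 1.68). Sat1, which acetylates polyamines, had a ratio of 1.19 (1.14 to 1.24) and Lamp2 of 0.934 (0.881 to 0.990). Of 24 genes of the clathrin coat, its uncoating and endocytosis, Sh3gl3 was higher (1.82, 1.00 to 3.43, from 38 and 17 UMIs) and Snap91 lower (0.488, 0.281 to 0.829, from 24 and 40 UMIs), while Itsn2 (1.05) and Picalm (1.06) were near 1. None of 10 Fbxo7 ligase and proteasome partners was 1.5-fold apart, and Cdk6, which FBXO7 binds, had a ratio of 0.832 (0.790 to 0.877) and Birc2 of 0.966 (0.911 to 1.02). None of 12 oxidative stress partners of DJ-1 was either, with Nfe2l2 at 0.954 and Sod2 at 0.860. Of 23 mitophagy genes, Pink1 was the only one (0.541, 0.422 to 0.690), with Tax1bp1 at 0.868 and Usp15 at 1.01.

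Over all nuclei, 1323 of the 16554 genes with at least 20 UMIs were at least 1.5-fold lower in Pink1 KO and 1095 higher. Of 28 other genes linked to Parkinson disease, 5 were at least 1.5-fold lower and none higher, a count from which nothing is read. All 5 had fewer than 50 UMIs. Among them, Cntn1, a neural adhesion gene, had 9 UMIs in the Pink1 KO library and 19 UMIs in the WT library (0.385, 0.154 to 0.894). The intervals of 3 others held 1: Uchl1 (0.610, 0.329 to 1.11), Rab39b (0.610, 0.291 to 1.25) and Gpnmb (0.642, 0.304 to 1.33). Enteric neuron nuclei numbered 4 in the Pink1 KO library and 17 in the WT library, and the part of their number in these ratios was not tested. Ncor1 (1.13, 1.10 to 1.17) and Gigyf2 (0.880, 0.846 to 0.915), with the most UMIs of that list, were near 1.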

How the data were processed

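Per the file headers, the deposited UMI counts per gene and barcode came from Cell Ranger 6.1.2; the build was mm10 (GRCm38) per the submitters' processing notes. Settings for introns, strand, annotation release and doublet removal were not given in the sources used here. Barcodes were kept with at least 500 UMIs, 300 genes and at most 10% mitochondrial UMIs, and the highest Scrublet scores (0.8% per 1000 barcodes) were removed, which took 1180 Pink1 KO and 632 WT barcodes. Both libraries were clustered together without integration (scanpy 1.11.5, 2000 scaled variable genes, 30 components, 20 neighbours, Leiden resolution 1.5). Clusters were named for the class whose markers had the largest mean log2 fold, provided this reached 0.3, at least 3 markers were 2-fold up and no other class came within 1. This rule and the clustering settings were set after the data were seen, and names may differ from the study's.

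Summed counts per class and library were scaled to CPM. Intervals are exact 95% Poisson (levels), Clopper-Pearson (shares) and conditional binomial (ratios), and cover counting error only; the ratio intervals were tested on simulated data. Ratios needed 50 UMIs over both libraries and 100 nuclei in each. Genes named are the members, their paralogs, the 3 genes of at least 200 UMIs most like each, and per list those 1.5-fold apart with an interval that leaves out 1 plus the 2 with the most UMIs. Counts of 5 or fewer are also named, except 1 gene that is not reported here, and single clusters were chosen after their values were seen. The members and lists were chosen with earlier results of these data known. Gene positions came from GENCODE M21, which held 99.8% of the IDs. Alternatives were other filters, doublet settings, clusterings, scalings, thinning, an equal class mix and subtraction of 10% free RNA.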

Additional observations from a re-analysis of the deposited data

Results flagged for a closer look

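Dnajc6 was counted with 4 UMIs in the enteric neuron nuclei of both libraries together, a class left out of the comparisons because it has 4 nuclei in the Pink1 KO library and 17 in the WT library. These are 30.8% of all 13 Dnajc6 UMIs, 3 of the 7 in the Pink1 KO library and 1 of the 6 in the WT library. The signal lies outside the classes compared, and its 4 UMIs over both libraries exceed the 3 that a count of 0 allows. The Pink1 KO library's 3 UMIs lie in 2 of its 4 nuclei, and their 205 CPM only equals that library's own limit of 205 CPM. The WT library's 1 UMI, or 16.5 CPM, is under its own limit of 49.6 CPM, so neither library alone exceeds its limit. WT enteroendocrine nuclei had 2 UMIs. The signal thus rests on 3 UMIs in 2 Pink1 KO nuclei and was not compared with the level of other small classes. With so few nuclei, no difference between the genotypes is detectable at this depth.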

How the results depend on the processing

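No paired analysis was possible because there is 1 library per genotype, and leaving out a replicate was not possible for the same reason. Over all nuclei, 55 of 56 recomputed ratios of the 8 genes stayed within the counting interval of the reported value. The exception was Fbxo7, whose ratio was 1.12 with each nucleus thinned to 500 UMIs, against 0.963. Vps13c stayed between 0.775 and 0.799 over all nuclei and between 0.468 and 0.678 in macrophage and dendritic nuclei, and Lrrk2 between 0.849 and 0.883 over all nuclei. Within classes and the epithelium, 342 of 350 values stayed within the interval. Among the other 8, thinning gave 1.99 for Vps35 in colonocytes (0.928 unthinned) and 2.21 for Atp13a2 in crypt-base nuclei (1.35 unthinned), and separate clustering gave 0.973 for Synj1 in crypt-base nuclei (1.13 together); the cause was not tested. Among the lists, the count of other genes linked to Parkinson disease at least 1.5-fold apart was 0 with a minimum of 50 UMIs, against 5, since all 5 have fewer UMIs. Of the 2 class ratios past 1.5-fold, Vps13c in macrophage and dendritic nuclei stayed past it in 9 of 10 alternatives and Park7 in goblet nuclei in 3 of 10. The median ratio of all genes over all nuclei was 0.985. All 24 recomputed levels stayed within their intervals. Depth limits most classes of under 100 nuclei, where a listed gene often has under 20 UMIs.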
